A study of Mus musculus with 15 samples.

Results

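The genes described here are 10 genes known from intestinal epithelium, followed across normal stomach tissue and stomach tumors of the mouse. They are Cdx1, Cdx2, Cdh17, Vil1, Muc13, Muc2, Zg16, Prap1, Fabp1 and Fabp2. They were chosen as a list of symbols, and all 10 are among the 36144 genes of the count table. RNA was sequenced in bulk from 15 samples in 5 groups of 3. Normal stomach gave 3 samples. Tumors gave 3 samples for each of 4 sites, namely the antrum, the corpus, and the boundary of the cardia with the greater curvature and with the lesser curvature. Samples are named here by place and replicate, as in antrum 1 or normal 2.

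All 15 samples, the normals included, came from C57BL/6 mice with the same genotype label. It combines a Pou2f3-CreERT driver with floxed Rb1 (Rb1fl/fl), floxed Trp53 (Trp53fl/fl) and a Cre-activated Myc transgene (LSL-MycT58A). Pou2f3 is the lineage factor of tuft cells, so tamoxifen switches the alleles in Pou2f3-expressing cells. The mice were 7 to 8 weeks old, received tamoxifen intraperitoneally at 50 mg/kg, and were sampled 5 weeks later. The normal samples are therefore induced mice of the same genotype, and the sources used here do not give the stomach region they were cut from. Samples are labelled as biological replicates without naming the mice, so p-values reflect the spread among these samples, part of which may be technical.

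The intestine and the stomach share much of their epithelial program but differ in a few regulators. Cdx1 and Cdx2 are the homeobox factors that set intestinal identity, and their appearance in the stomach, with goblet cells and the mucin Muc2, is the usual definition of intestinal metaplasia. Cdh17 is the liver-intestine cadherin, a cell adhesion protein that Cdx2 is known to activate. Vil1, or villin, bundles actin in microvilli. Muc13 is a transmembrane mucin and Muc2 the gel-forming mucin of goblet cells. Zg16 is a lectin-like protein secreted by goblet cells and also known from pancreatic zymogen granules. Prap1 is a secreted, proline-rich acidic protein of gut epithelium. Fabp1 and Fabp2 carry fatty acids inside absorptive cells.

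The total per library ran from 7957165 to 21564972 counts. A single count was worth 0.0478 to 0.112 CPM, the count scaled to a library of 1000000 after TMM adjustment. Some libraries stood apart. The summed level of 11 markers of any epithelium was 246.6 CPM in antrum 1 and 218.7 CPM in lesser curvature 1, against 1934 to 11330 CPM in the other 10 tumors and 4230 to 12540 CPM in the normals. Normal 2 carried 6498 CPM of 12 markers of squamous forestomach epithelium, against 13.3 CPM in normal 1 and 6.65 CPM in normal 3. Normal 3 carried 604 CPM of Gast, the gastrin of antral G cells, against 0 in normal 1 and 37.1 CPM in normal 2.

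Promoter sequences are shown for Fabp1, Fabp2 and Vil1, because Fabp2 and Vil1 varied most alike among the members and because Fabp1 and Fabp2 hold the letters searched as a Cdx motif. The sequences are from RefSeq on GRCm38.p6, on the plus strand, from 250 bases before to 50 bases after the start of the gene. The table held 7 of the 10 genes. Capitals mark CAATAAA or CCATAAA on either strand, where TTTATTG is CAATAAA read from the other strand.
Fabp1, chr6:71199629-71199928: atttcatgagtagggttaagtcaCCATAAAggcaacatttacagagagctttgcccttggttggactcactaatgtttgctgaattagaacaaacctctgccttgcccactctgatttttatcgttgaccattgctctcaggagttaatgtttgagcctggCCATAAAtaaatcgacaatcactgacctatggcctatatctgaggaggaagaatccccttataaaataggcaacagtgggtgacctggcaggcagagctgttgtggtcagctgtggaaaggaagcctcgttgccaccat
Fabp2, chr3:122894822-122895121: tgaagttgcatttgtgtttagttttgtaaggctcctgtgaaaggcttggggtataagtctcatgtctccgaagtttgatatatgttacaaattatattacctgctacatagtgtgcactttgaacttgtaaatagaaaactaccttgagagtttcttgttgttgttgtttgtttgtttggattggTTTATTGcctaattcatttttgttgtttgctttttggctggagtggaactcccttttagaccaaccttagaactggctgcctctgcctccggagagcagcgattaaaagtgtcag
Vil1, chr1:74409134-74409433: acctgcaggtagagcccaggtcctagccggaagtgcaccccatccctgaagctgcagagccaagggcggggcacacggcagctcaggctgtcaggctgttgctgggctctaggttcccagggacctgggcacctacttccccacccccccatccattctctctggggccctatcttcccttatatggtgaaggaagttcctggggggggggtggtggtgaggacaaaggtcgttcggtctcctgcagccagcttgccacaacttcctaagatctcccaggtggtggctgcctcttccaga
The Fabp1 window held CCATAAA 227 and 89 bases before the start, and the Fabp2 window held TTTATTG 65 bases before it. The Vil1 window held neither form. Among all 32851 windows of this length in the table, 4.6% held CAATAAA and 2.75% held CCATAAA on either strand. A match describes the letters only and says nothing of binding.

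The 2 regulators of intestinal identity were at or under the limit of detection. Cdx1 (chr18:61018862-61036199, minus strand, GRCm38) had 1 count in all 15 libraries together, in corpus 3. Cdx2 (chr5:147300805-147307270, minus strand) had 2 counts in normal 3, 1 in antrum 3, 4 in corpus 1 and 2 in corpus 2, and 0 in the other 11 libraries. Both genes were too low to be tested. For Cdx1, the count of 0 over the 3 normals allows a level of up to 0.0786 CPM, counting error only. The Cdx2 counts came to 0.153 CPM in normal 3, 0.0551 CPM in antrum 3, 0.316 CPM in corpus 1 and 0.112 CPM in corpus 2. No library, normal or tumor, held more than 4 counts of either gene.

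Other genes that define intestinal lineages were also at or near 0. Atoh1, the factor that commits cells to secretory intestinal lineages, and the secreted products Reg4, Ang4, Defa24 and Defa30 had 0 counts in all 15 libraries. The sucrose-digesting enzyme Sis had 3 counts in all, the trehalose-digesting enzyme Treh 1 count, and the goblet cell product Retnlb 2 counts. Isx, an intestinal homeobox factor, had 36 counts over the 15 libraries. The stomach's own genes were abundant, with 106800 to 114800 CPM for 12 gastric mucous genes in the normals and 150.8 to 93810 CPM in the tumors. The name intestinal epithelium therefore describes where these 10 genes are known from, and the defining intestinal regulators did not accompany them in these samples.

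In TPM, which divides by transcript length and scales each library to 1000000, Zg16 and Prap1 had the highest means in the normals, but normal 3 set both. The Zg16 mean was 209.7 ± 357 TPM (SD, n = 3) with a median of 4.07, and the Prap1 mean was 44.1 ± 75.1 TPM with a median of 1.07. Vil1 had a mean of 43.2 ± 32.8 TPM and a median of 54.1, the highest median in the normals. Fabp2 (12.8 ± 11.2 TPM), Fabp1 (5.00 ± 2.69), Muc13 (3.25 ± 3.70), Muc2 (1.33 ± 1.20) and Cdh17 (0.0453 ± 0.0581) followed. The step from Muc2 down to Cdh17 was larger than the SD of either, and the other neighbors in this order of means differed by less than the larger of their SDs. In the 12 tumors the means ran from Vil1 (34.7 ± 28.4 TPM) over Zg16 (24.8 ± 42.7), Muc13 (9.31 ± 9.25), Fabp2 (4.40 ± 6.39), Cdh17 (2.84 ± 3.86), Prap1 (2.63 ± 6.82) and Fabp1 (2.04 ± 2.54) to Muc2 (0.762 ± 0.614), each step smaller than the larger SD. The Zg16 median in the tumors was 2.28 TPM, below the Muc13 median of 6.22 TPM.

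**Figure D1:**
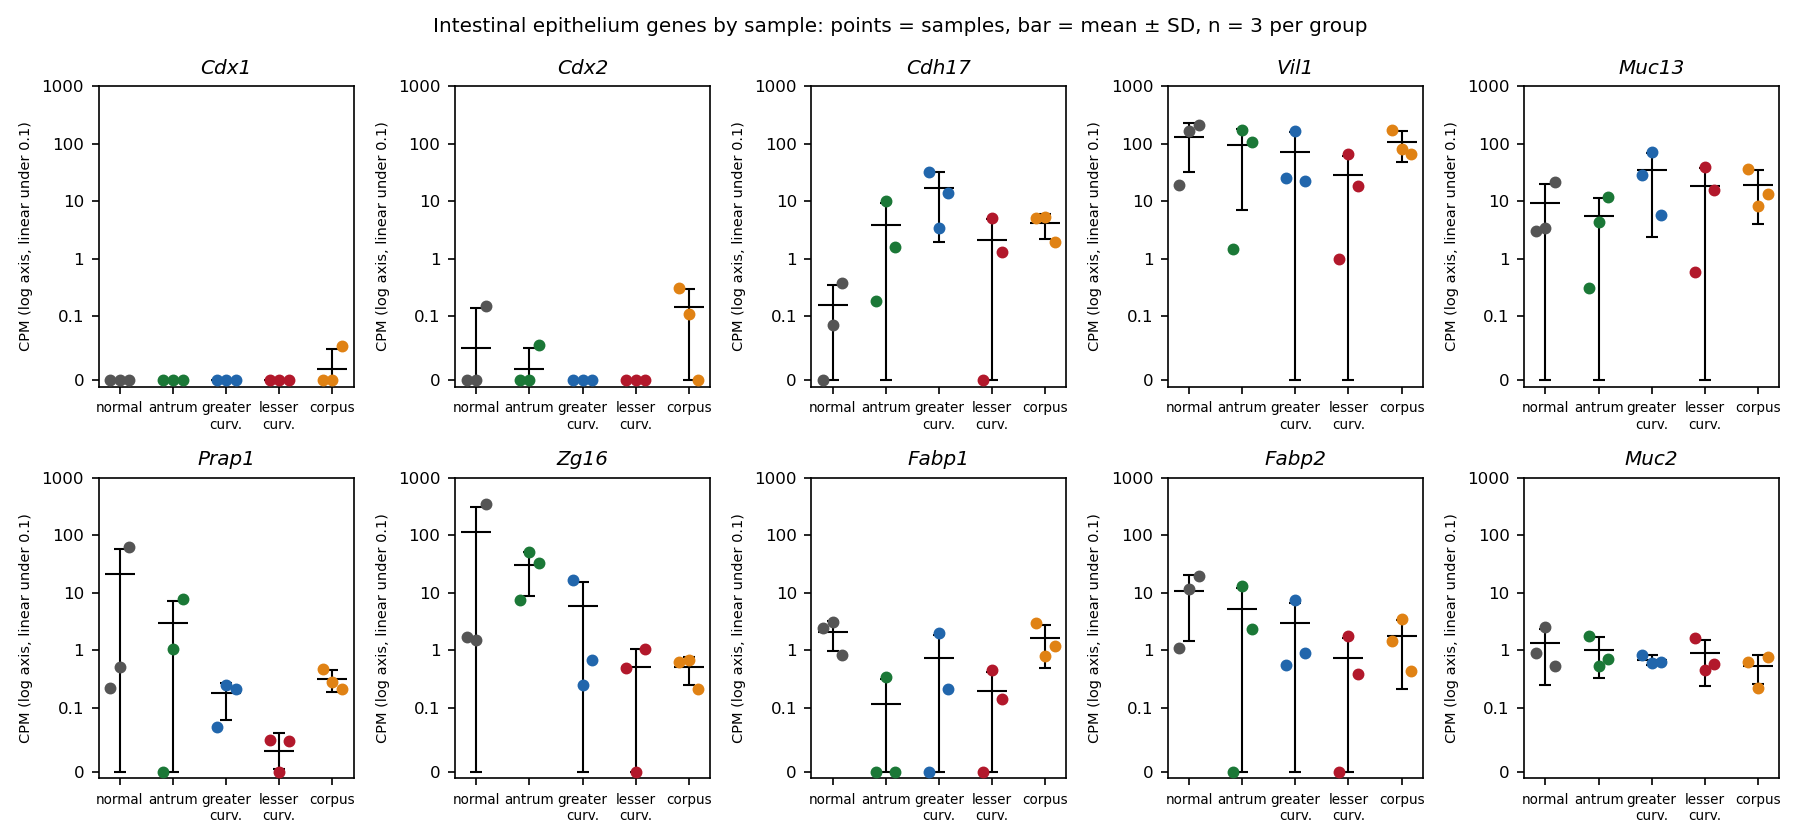
Each panel gives 1 gene, with CPM on a log axis that is linear under 0.1 and the 5 groups on the horizontal axis. Points are samples, long ticks are means and bars are the SD (n = 3, cut at 0). Cdx1 and Cdx2 sit at or near 0, Cdh17 lies above the normals in 10 of 12 tumors, and the high normal point of Prap1 and Zg16 is normal 3.

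Across all genes, 31.9% of the 16224 tested passed an adjusted p of 0.05 between all tumors and normal (edgeR quasi-likelihood test with Benjamini-Hochberg adjustment). Genes called higher made up 16.2% and genes called lower 15.7%. Of the 10 members 8 passed the filter on low counts, and 3 of these 8 were called, 1 higher and 2 lower. Their median log2 fold change was -1.68, against -0.04 over all tested genes. No member had all 12 tumors above every normal, against 9.58% of all tested genes, nor all 12 below, against 6.65%. The 2 lower calls depended on a single normal sample, as given with each gene. In bulk tissue, fewer cells of a type and less RNA per cell cannot be told apart.

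Cdh17 (chr4:11758147-11817895, plus strand) was the member that rose. Its level was 0, 0.0872 and 0.382 CPM in the normals. It was 0.184, 10.02 and 1.60 CPM in the antrum tumors and 32.7, 3.46 and 14.1 CPM in the greater curvature tumors. It was 0, 5.15 and 1.29 CPM in the lesser curvature tumors and 5.06, 5.38 and 1.95 CPM in the corpus tumors. Of the 12 tumors 10 lay above every normal, and the exceptions, antrum 1 and lesser curvature 1, were the libraries with the lowest epithelial markers. The log2 fold change over all tumors was 4.89 (SE 1.71, edgeR adjusted p = 0.0467). It was not called by edgeR without the filter on low counts (adjusted p = 0.0626) or by limma on log2(TPM + 1) (adjusted p = 0.057), and was called by limma on log2(TPM + 0.1) (adjusted p = 0.0206).

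The direction of Cdh17 held whichever library was left out, with a log2 fold change of 4.30 to 6.66. The call was thin. It held without antrum 1 (edgeR adjusted p = 0.0331), lesser curvature 1 (0.0273) or greater curvature 2 (0.0349), and was lost without any of the other 12 libraries, with an adjusted p of up to 0.141. Without antrum 1 and lesser curvature 1 together the log2 fold change was 5.18 (adjusted p = 0.015). Per 1000 CPM of the 11 epithelial markers, Cdh17 had 0 to 0.0387 CPM in the normals and 0.219 to 12.2 CPM in 11 of 12 tumors, with lesser curvature 1 at 0. On that ratio antrum 1 (0.748) also lay above the normals, and no test was run on it.

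Pancreatic acinar markers varied as well. The summed level of 12 of them was 12750 to 21990 CPM in the normals and between 3.44 and 17590 CPM in tumors. It was 12710 CPM in greater curvature 1, the highest Cdh17 sample, and 1416 CPM in greater curvature 3, the next highest. In the normals nearly all of the sum was Clps, at 12600 to 21800 CPM. From normals to tumors the mean fell for Clps (17772 to 2971 CPM) and Cela1 (105 to 39.1 CPM). It rose for Ctrb1 (15.7 to 191 CPM) and Cpa1 (1.81 to 31.3 CPM), neither called by edgeR. The median log2 fold change of the 11 tested acinar genes was 1.51. Markers at 0 numbered 0 to 4 of 12 among normal samples and 0 to 6 among tumors. The part of acinar tissue in Cdh17 was not tested. The genes most like Cdh17 over the 15 samples were Slc4a11 (Pearson r = 0.94, Spearman rho = 0.87), a membrane transporter, Fhl3 (0.91 and 0.83) and Reg3g (0.91 and 0.85), an antimicrobial lectin of gut epithelium. The 15 samples share 5 groups, and these values are a description.

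Vil1 (chr1:74409376-74435559, plus strand) was the most abundant member in the tumors and followed the epithelial content of the samples. It had 19.2, 167 and 207 CPM in the normals and 1.48, 174 and 106 CPM in the antrum tumors. It had 25.4, 169 and 22.4 CPM in the greater curvature tumors, 0.983, 64.9 and 18.5 CPM in the lesser curvature tumors and 173, 80.7 and 65.3 CPM in the corpus tumors. The groups overlapped, and only antrum 1, lesser curvature 1 and lesser curvature 3 lay below every normal. The log2 fold change over all tumors was -0.97 (SE 1.07, edgeR adjusted p = 0.485), so no difference was detectable.

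The spread of Vil1 was far smaller relative to epithelium. Its CPM varied 211-fold over the 15 samples, while its CPM per 1000 CPM of the epithelial markers varied 4.66-fold, from 4.49 in lesser curvature 1 to 20.9 in normal 3. The genes most like Vil1 were Anks4b (Pearson r = 0.99, Spearman rho = 0.95), a microvillus tip link protein, Capn5 (0.99 and 0.95), a calpain protease, and Lgals4 (0.99 and 0.94), a galectin of gut epithelium. Vil1 overlaps Usp37 on the other strand at its end. The sources used here do not say whether counting used strand, so reads of such partners cannot be told apart, which applies to every overlap named here.

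**Figure D2:**
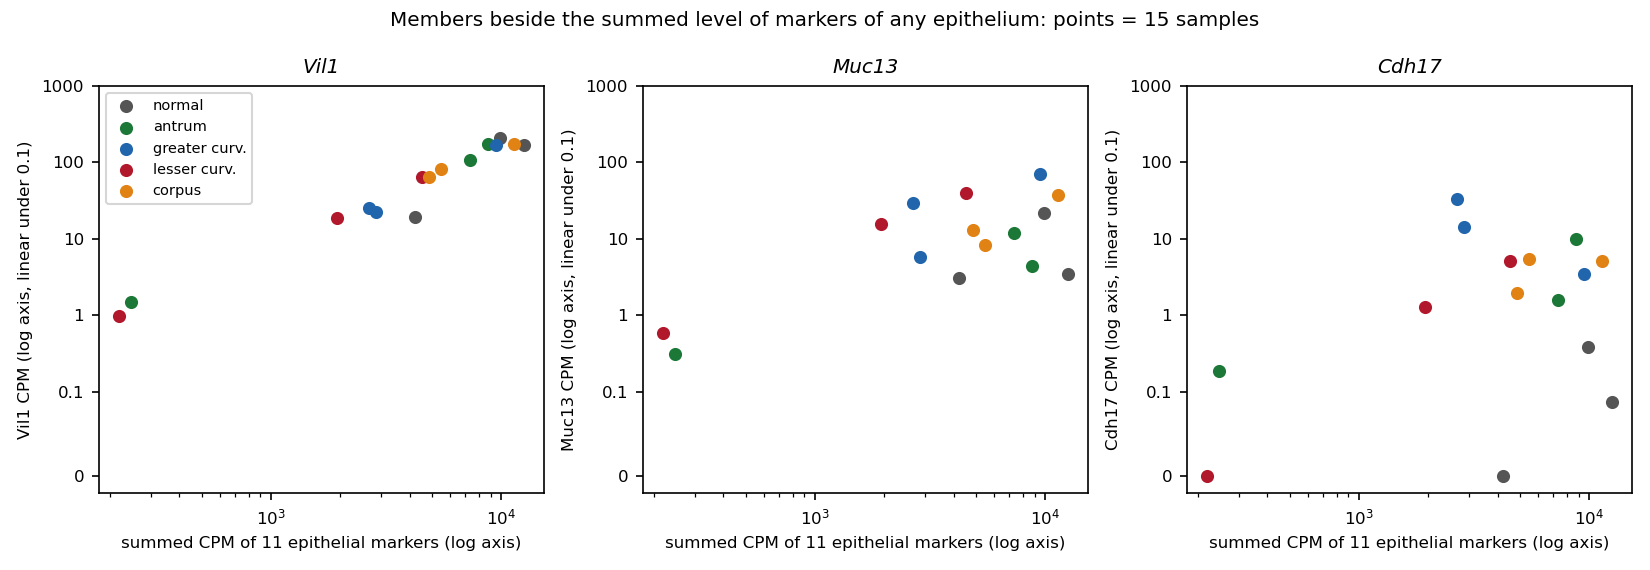
The horizontal axis is the summed CPM of 11 epithelial markers and the vertical axis the CPM of Vil1, Muc13 or Cdh17, all on log axes that are linear under 0.1 for the vertical axis. Points are the 15 samples. Vil1 rises along the axis from 0.983 CPM in lesser curvature 1 to 207 CPM in normal 3, while Cdh17 is highest at 32.7 CPM in a sample of 2675 CPM.

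The mucins did not pass the test. Muc13 (chr16:33794037-33819934, plus strand) had 3.09, 3.49 and 21.9 CPM in the normals, and between 0.307 and 70.1 CPM in tumors, with a median of 12.5. The highest tumors were greater curvature 2 (70.1 CPM), lesser curvature 2 (39.8 CPM), corpus 1 (36.9 CPM) and greater curvature 1 (29.1 CPM), and these 4 lay above every normal. Antrum 1 and lesser curvature 1 lay below every normal. Muc13 gave a log2 fold change of 0.77 (SE 1.14, edgeR adjusted p = 0.607). Per 1000 CPM of epithelial markers, Muc13 ran from 0.278 CPM in normal 2 to 10.9 CPM in greater curvature 1. Muc13 overlaps the antisense gene Gm15657.

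Muc2 (chr7:141690340-141754693, plus strand) was scarce, with 4 to 33 counts a library. It had 0.882, 2.53 and 0.535 CPM in the normals, and between 0.224 and 1.78 CPM in tumors, with a median of 0.63. No tumor lay above every normal and 3 lay below. Muc2 gave a log2 fold change of -0.78 (SE 0.54, edgeR adjusted p = 0.270), and it was 0.10 without normal 2. Its highest tumor values, 1.78 CPM in antrum 1 and 1.62 CPM in lesser curvature 1, were in the libraries with the lowest epithelial markers, the reverse of Vil1.

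Zg16 (chr7:127050156-127087328, minus strand) was high in normal 3 and in the antrum tumors. It had 1.69, 1.48 and 341 CPM in the normals, so normal 3 was 202-fold above normal 1 and 230-fold above normal 2. The antrum tumors had 7.56, 50.2 and 33.2 CPM and the greater curvature tumors 16.6, 0.255 and 0.681 CPM. The lesser curvature tumors had 0.491, 0 and 1.05 CPM and the corpus tumors 0.632, 0.673 and 0.216 CPM. Zg16 overlaps the small RNA gene Gm22747 and the noncoding gene Gm44939. All 3 antrum tumors and greater curvature 1 lay above normals 1 and 2 and below normal 3, and the other 8 tumors lay below every normal.

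Over all tumors the log2 value of Zg16 was -5.42 (SE 1.22, edgeR adjusted p = 0.00833). Without normal 3 the value was 0.74 (adjusted p = 0.701), so both the call and the direction rested on that library. Limma on log2 TPM did not call it, with an adjusted p of 0.276 to 0.403. Prap1 (chr7:140093395-140097200, plus strand) had the same dependence. It had 0.220, 0.523 and 63.3 CPM in the normals, with normal 3 being 287-fold above normal 1 and 121-fold above normal 2.

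The Prap1 level was 0, 1.05 and 7.93 CPM in the antrum tumors and 0.0697, 0.255 and 0.210 CPM in the greater curvature tumors. It was 0.0491, 0 and 0.0478 CPM in the lesser curvature tumors and 0.474, 0.280 and 0.216 CPM in the corpus tumors. Antrum 2 and antrum 3 lay between normal 2 and normal 3, and 7 tumors lay below every normal. The log2 fold change over all tumors was -6.13 (SE 1.21, edgeR adjusted p = 0.00513), and without normal 3 it was -0.30 (adjusted p = 0.856). Limma on log2 TPM gave an adjusted p of 0.188 to 0.273. Prap1 overlaps the gene Fuom on the other strand.

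**Figure D3:**
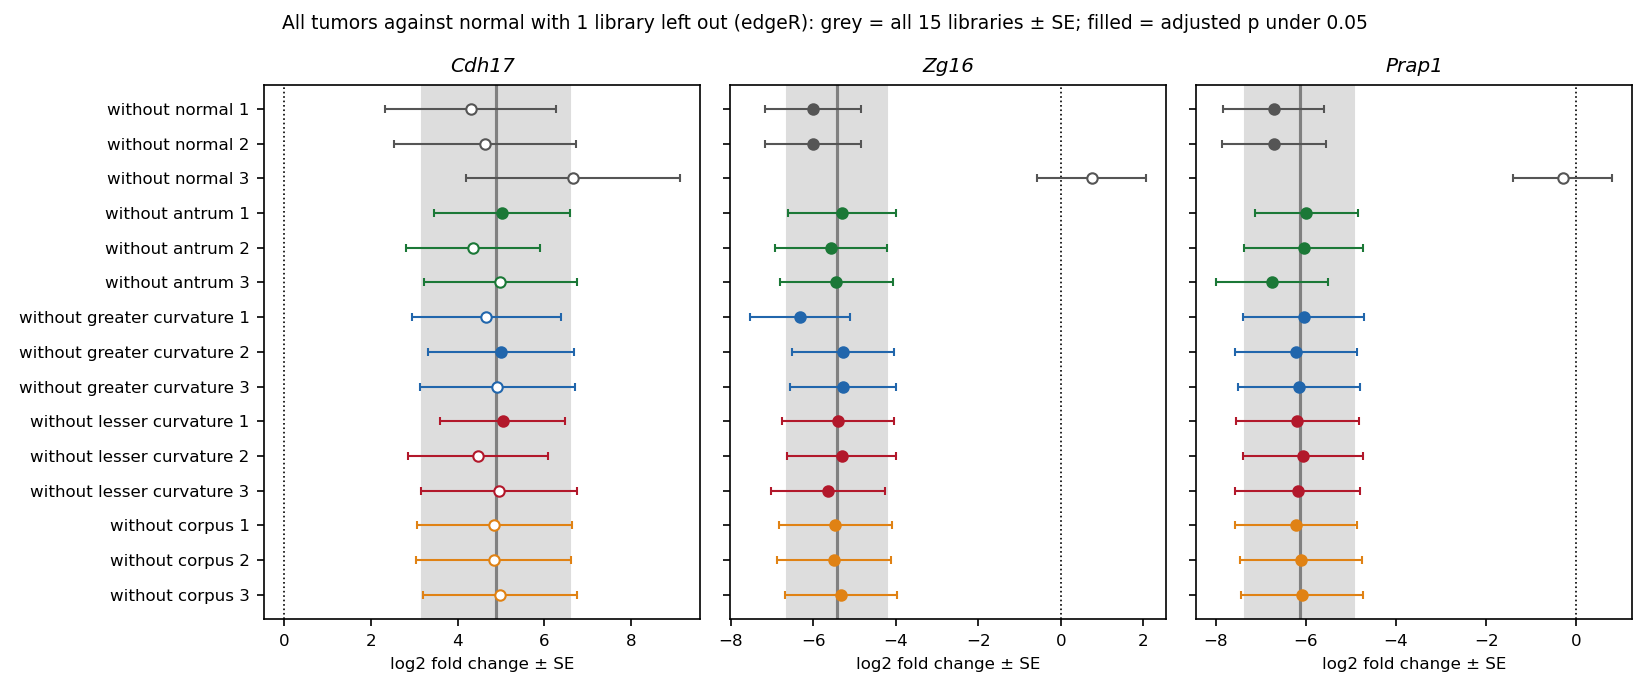
Points give the log2 fold change of all tumors against normal with 1 library left out and bars its SE. The grey line and band are the value with all 15 libraries ± SE, and filled points have an edgeR adjusted p under 0.05. Without normal 3 Zg16 moves from -5.42 to 0.74 and Prap1 from -6.13 to -0.30, while Cdh17 stays between 4.30 and 6.66 with most points open.

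Gastrin, Zg16 and Prap1 were all highest in normal 3. Gast was 0, 37.1 and 604 CPM in the normals, 0, 83.2 and 17.7 CPM in the antrum tumors and 0 to 2.30 CPM in the other 9 tumors. Gip, an incretin hormone of the upper gut, was 0, 0.698 and 2.83 CPM in the normals, 0, 0.816 and 0.661 CPM in the antrum tumors and 0 in 8 of the other 9, with 0.0561 CPM in corpus 2. Gip was among the 3 genes most like both Prap1 (Pearson r = 0.88, Spearman rho = 0.80) and Zg16 (0.77 and 0.62). Gast was not among those 3 genes for either. Greater curvature 1 had 16.6 CPM of Zg16 and antrum 1 had 7.56 CPM, both with no counts of Gast, and normal 2 had 37.1 CPM of Gast with 1.48 CPM of Zg16. Summed acinar markers were 19450, 12750 and 21990 CPM in the normals, nearly all of it Clps (12600 to 21800 CPM). The part that the sampled stomach region plays in Zg16 and Prap1 was not tested.

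**Figure D4:**
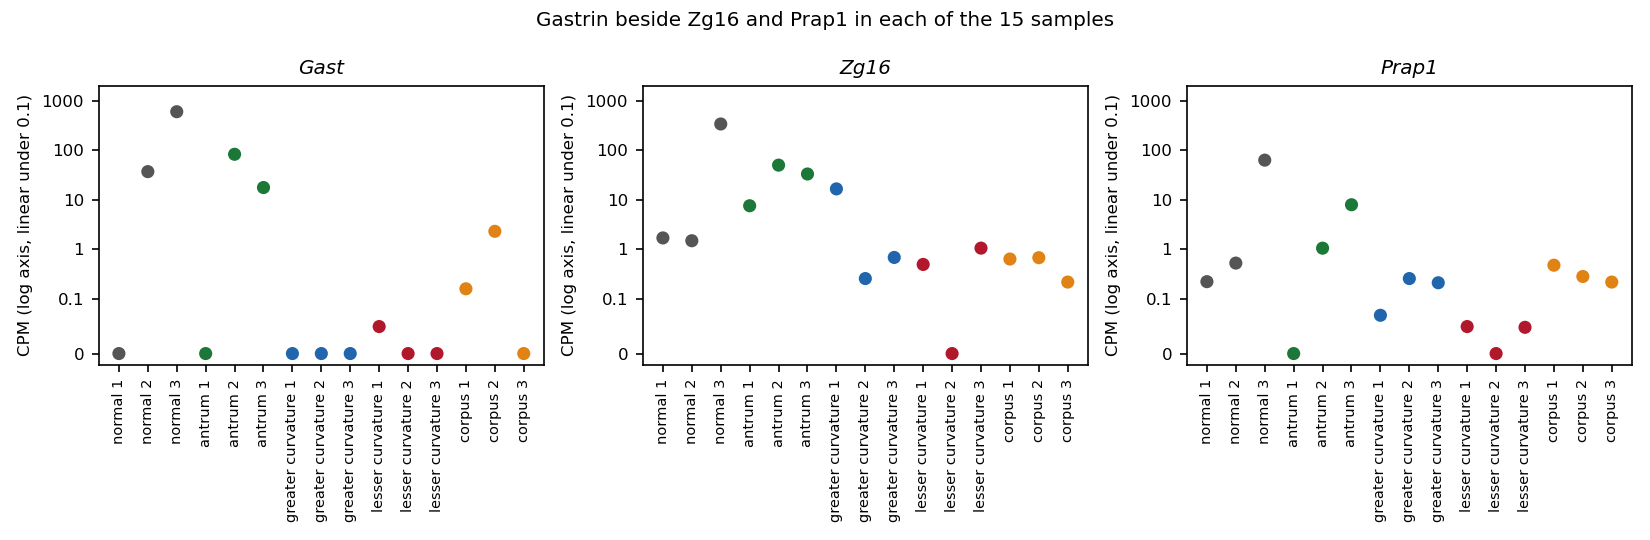
Each point is 1 of the 15 samples, with CPM on a log axis that is linear under 0.1. Normal 3 has the highest value of all 3 genes, 604 CPM for Gast, 341 CPM for Zg16 and 63.3 CPM for Prap1, and antrum 2 and antrum 3 hold all 3 genes.

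Fabp1 and Fabp2 lay lower in most tumors but did not pass the test. Fabp1 (chr6:71199827-71205023, plus strand), whose promoter is shown above, had 2.42, 3.05 and 0.841 CPM in the normals. It had 0, 0.350 and 0 CPM in the antrum tumors and 0, 1.99 and 0.210 CPM in the greater curvature tumors. It had 0, 0.448 and 0.143 CPM in the lesser curvature tumors and 2.93, 0.785 and 1.19 CPM in the corpus tumors. Of the 12 tumors 9 lay below every normal, and the other 3 were greater curvature 2, corpus 1 and corpus 3. The log2 fold change was -2.39 (SE 0.98, edgeR adjusted p = 0.0792). The value passed without antrum 2 or without greater curvature 2, with an adjusted p down to 0.0187, and without greater curvature 2 and corpus 1 together (-3.22, adjusted p = 0.0172).

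Fabp1 was most like Cytip (Pearson r = 0.96, Spearman rho = 0.97), an adaptor protein, Cst8 (0.96 and 0.94), a cystatin, and Atp4a (0.95 and 0.95), the acid pump of parietal cells. Atp4a had 2546 to 5142 CPM in the normals, 4177 CPM in corpus 1 and 1717 CPM in greater curvature 2, and 12.2 CPM in lesser curvature 1. The 4 highest Fabp1 samples, corpus 1 included, were thus samples of high Atp4a. Normal 3 also lay in the Atp4a range of the normals, yet had 0.841 CPM of Fabp1, below corpus 3 at 1.19 CPM.

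Fabp2 (chr3:122895072-122899506, plus strand) had 1.10, 11.5 and 19.9 CPM in the normals, and between 0 and 13.1 CPM in tumors, with a median of 1.16. It was highest among tumors in antrum 2 (13.1 CPM) and greater curvature 2 (7.34 CPM) and at 0 in antrum 1 and lesser curvature 1. Of the 12 tumors 6 lay below every normal. Fabp2 gave a log2 fold change of -2.39 (SE 1.15, edgeR adjusted p = 0.123). Fabp2 lies within the antisense gene 4933405D12Rik.

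The members did not vary as a single group. Of the 28 pairs among the 8 tested members 17 had a Pearson r above 0 over the 15 samples, with a median of 0.18. Fabp2 and Vil1 were most alike (r = 0.88, rho = 0.88, and r = 0.80 without the 2 samples farthest from the Vil1 median). Prap1 and Zg16 had r = 0.74 and rho = 0.48, and r = 0.46 without the 2 samples farthest from the Zg16 median. The lowest was Cdh17 and Muc2 (r = -0.62, rho = -0.57). These values share libraries and epithelial content and are a description.

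The genes most like the remaining members were fixed by the same measure. Fabp2 was most like Slc16a9 (Pearson r = 0.95, Spearman rho = 0.92), a membrane transporter, Sh3d19 (0.94 and 0.92) and Tmod3 (0.94 and 0.92), an actin-capping protein. Muc13 was most like Atp2c2 (0.91 and 0.84), a calcium pump of secretory cells, Urah (0.90 and 0.88) and the adhesion molecule Ceacam1 (0.87 and 0.72). Prap1 was led by Gpx3 (0.89 and 0.85), a secreted peroxidase, and also near Me2 (0.85 and 0.83), and Zg16 was led by Lrrfip2 (0.80 and 0.76) and also near Msh5 (0.76 and 0.57). Muc2 had the weakest likeness, to Kdm6a (0.77 and 0.69), Yod1 (0.74 and 0.51) and Art4 (0.74 and 0.47).

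Each tumor site was also set against the same 3 normals, so the 4 comparisons share their controls. In the antrum, 0 of 8 members were called, where 14.7% of all tested genes were (9.59% higher and 5.08% lower, edgeR adjusted p under 0.05). The greater curvature had 1 call, Cdh17, where 9.26% of genes were called (6.5% higher and 2.76% lower). Its log2 fold change was 6.67 (SE 1.92, edgeR adjusted p = 0.04998), and the call was lost without any of 11 libraries. The lesser curvature had 2 calls, where 33.6% of genes were called (18.2% higher and 15.3% lower), and the corpus 0, where 3.54% were (2.35% higher and 1.19% lower). At an unadjusted p under the same threshold the antrum held Cdh17 and Fabp1, and the corpus Cdh17, Zg16 and Prap1.

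The lesser curvature calls were Prap1 and Zg16. Against the normals the log2 difference was -8.85 for Prap1 (SE 2.51, edgeR adjusted p = 0.0215) and -7.64 for Zg16 (SE 2.36, edgeR adjusted p = 0.0296). Prap1 rested on 2 counts in the 3 lesser curvature tumors together against 837 in the normals. The ratio of normal to tumor was 550.9, with a 95% exact interval of 152 to 4556 that covers counting error only. With normals 1 and 2 alone the ratio was 9.01 (interval 1.87 to 85.7). Both calls were lost without normal 3, lesser curvature 1 or lesser curvature 3, and that of Zg16 also without lesser curvature 2. Same-numbered normal and lesser curvature samples deviated together. A block for the replicate number was fitted over all 15 samples, including corpus samples, whose same-number pairs with antrum were below 0. With that block Zg16 was not called (adjusted p = 0.0584) and Prap1 stayed called. Fabp2 was called lower (log2 fold change -4.66, adjusted p = 0.0302, against -4.02 and 0.113 without the block). The block does not pair normal and lesser curvature alone, and the part of pairing in these changes was not tested. Without antrum 1 and lesser curvature 1 together the adjusted p was 0.0507 for Prap1 and 0.0883 for Zg16.

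**Figure D5:**
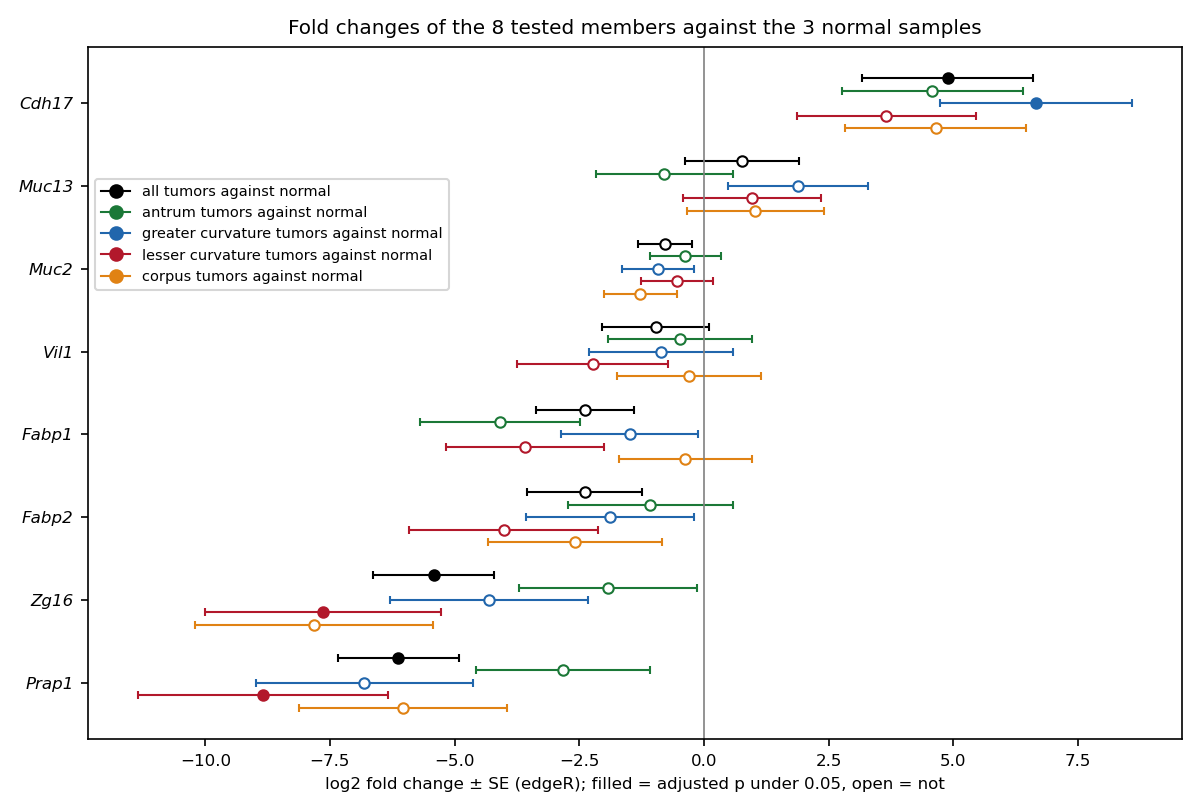
Points are log2 fold changes against the 3 normals for the 8 tested members and bars are SE. Black is all tumors and colors are the 4 sites, filled where the edgeR adjusted p is under 0.05. Cdh17 is above 0 in every comparison, from 3.66 in the lesser curvature to 6.67 in the greater curvature, and Zg16 and Prap1 are below 0 in all of them with normal 3 included.

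No member was called between tumor sites. An F test among the 4 sites called 0 of 8 members and 0 of 16224 genes (edgeR, 0% called), while 947 genes had an unadjusted p under 0.05. Other tools called 164 genes (DESeq2), 12 (edgeR without the normals) and 0 to 9 (limma). Zg16 had the smallest unadjusted p of the members, 0.0287 (adjusted p = 0.789), followed by Prap1 with 0.0505 (adjusted p = 0.86). Against the other 3 sites, antrum tumors had log2 fold changes of 4.67 for Zg16 (SE 1.35) and 4.40 for Prap1 (SE 1.38), with unadjusted p-values of 0.0048 and 0.00769 that did not pass adjustment in edgeR. Each site set against the other 3 called 0 members, where at most 0.00616% of genes were called.

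Other genes of intestinal epithelium were counted in the pooled comparison by edgeR adjusted p over all genes, where 31.9% of all tested genes were called. In none of the 5 lists did a call hold whichever single library was left out. Of 14 tested transcription factors of gut epithelium 2 fell, with a median log2 fold change of -1.13. Spdef, a factor of mucus-secreting cells, fell by 3.29 (adjusted p = 0.00969), with all 12 tumors below every normal and the call lost without normal 1. Gata4, a factor of foregut epithelium, fell by 1.15 (adjusted p = 0.0346), and that call was lost without any of 7 libraries.

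Of 21 tested enterocyte genes 2 rose and 6 fell (38.1% called), with a median of -1.07. Mttp, which loads lipid onto lipoproteins, rose by 1.06 (adjusted p = 0.0263). Its log2 fold change stayed at 0.78 without normal 2 and 1.16 without normal 3, but the call was lost in both (adjusted p = 0.115 and 0.0686). The nutrient transporters Slc15a1 (-3.86, adjusted p = 0.00359), Slc6a19 (-5.40, adjusted p = 0.00466) and Slc5a1 (-3.07, adjusted p = 0.00652) fell. All 3 calls were lost without normal 2, the library of high squamous markers, where Slc6a19 had 23.6 CPM against 0.294 and 0.229 CPM in the other normals. Without it the values were -2.13 for Slc15a1, -0.51 for Slc6a19 and -2.15 for Slc5a1. The part of squamous tissue in these falls was not tested.

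Of 13 tested brush border genes (15.4% called) 0 rose and 2 fell, the actin linkers Espn (-1.05, adjusted p = 0.0257) and Ezr (-1.52, adjusted p = 0.0403), with a median of -1.27. The Espn call was lost without normal 1 or normal 2, and that of Ezr without any of 9 libraries. Of 11 tested goblet genes (9.09% called) 0 rose and 1 fell, the secretory chaperone Agr2 (-2.98, adjusted p = 0.019, lost without normal 1), with a median of -1.60. Agr2 is also made by gastric mucous cells, and all 12 tumors lay below every normal. Clca1, a goblet cell product, had 0.735, 3146 and 405 CPM in the normals, and between 0.0983 and 2230 CPM in tumors (log2 fold change -3.75, adjusted p = 0.1).

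Of 8 tested Paneth and stem cell genes 1 rose and 1 fell (25% called), with a median of -0.03. Reg3g rose by 3.08 (SE 0.92, adjusted p = 0.0253), from 2.88 to 17.3 CPM in the normals to a tumor median of 82.0 CPM, with 10 of 12 tumors above every normal and the call lost without normal 1 or normal 2. Reg3b, a related lectin, stood at a log2 value of 3.52 (adjusted p = 0.0759), also with 10 of 12 tumors above every normal. Pla2g2a, an antimicrobial phospholipase, fell by 4.98 (adjusted p = 0.00816). Its level was low, at 0.0735 to 3.67 CPM in the normals and 0 to 0.699 CPM in the tumors (median 0). Without normal 3 the log2 fold change was -3.75 and the call was lost (adjusted p = 0.0664). It was listed here as a Paneth cell gene, but the listed Paneth defensins, Defa24 and Defa30, were at 0 in all libraries.

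Over all tested genes 31.9% were called and 15.7% were called lower. Among lists for other cell types, 4 of 12 gastric mucous genes (33.3%) and 7 of 11 parietal, chief and antral genes (63.6%) fell. So did 8 of 12 squamous genes (66.7%), and none in these lists rose. Of these, 1 gastric mucous gene (Gkn3), 3 of the parietal and chief genes (Chia1, Hrh2 and Kcne2) and 0 squamous genes kept call and direction whichever library was left out. Without normal 1, the gastric mucous genes A4gnt, Muc6 and Tff2 lost their calls. Without normal 2, which held nearly all squamous RNA of the normals, all 8 squamous values were above 0, from 0.37 for Lor to 7.20 for Krt13, and Krt13 (adjusted p = 0.043) and Krt4 (3.81, adjusted p = 0.0324) were called higher. Of 11 markers of any epithelium 0 were called by edgeR, with a list median of -0.85. The tight junction gene Cldn7 alone had an unadjusted p under 0.05 (0.0416, log2 fold change 2.28), with 10 of 12 tumors above every normal. Esrp1 (-1.42, adjusted p = 0.114) and Grhl2 (-1.24, adjusted p = 0.143) had all 12 tumors below every normal. All 9 smooth muscle genes fell, with 4422 to 6376 CPM summed in the normals and 188.6 to 1148 CPM in the tumors. Of 12 endocrine genes 2 fell (16.7% called), the hormones Ghrl and Gip, while the list median was 0.76. Syp (1.85, adjusted p = 0.0586) and Insm1 (2.80, adjusted p = 0.0732) were not called, each with 10 of 12 tumors above every normal. Of 11 acinar genes 2 fell (18.2% called), with an acinar median of 1.51. Of 10 liver genes 5 rose and 1 fell (60% called), and of 7 immune genes 2 rose (28.6% called). In the same leave-one-out fits all 9 smooth muscle calls and 1 liver call (Fgb) held, and 0 of the endocrine, acinar and immune calls. How these differences in tissue makeup bear on the members was not tested, apart from the ratios to epithelial markers given above.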

How the data were processed

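The deposited count table holds expected counts per gene as whole numbers. A second deposited table carries FPKM in its name, yet its columns sum to 1000000 apiece, and its values are treated here as TPM made by the authors. Per the submitters' processing notes, bcl2fastq 2.19, kallisto 0.44.0, sleuth, DESeq2 and GRCm38.p6 are named, without roles. The sources used here do not say how transcripts were summed to genes or whether strand was used.

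A single quasi-likelihood model of the counts was made in edgeR 4.0.16 (R 4.3.3) over all 15 samples by group, robust, with TMM scaling and filterByExpr at a minimum count of 10. All tumors is the mean of the 4 site coefficients. Adjusted p-values are by Benjamini-Hochberg over 16224 genes, called under 0.05, and an adjusted p without a tool is from edgeR. CPM use the scaled libraries, and correlations use log2 CPM with a prior count of 2. Fitted fold changes of groups at or near 0 depend on the model. Only the pooled edgeR comparison was tried on simulated counts, with the same spread for every gene. That simulation does not hold the spread that Zg16 and Prap1 had among the normals.

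Alternatives were DESeq2 1.42.0 and its size factors, no filter, a replicate block, compared groups only, limma 3.58.1 on log2(TPM + 1) and log2(TPM + 0.1), and leaving out each library. Leaving out greater curvature 2 with corpus 1, and antrum 1 with lesser curvature 1, was added after seeing the data. The members and lists were chosen with earlier results of these data known. Text names all members, up to 4 genes a list by smallest p, and the 3 genes most like each member. Atoh1, Reg4, Ang4, the defensins, Sis, Treh, Retnlb, Isx, Mttp and Krt13 were picked after their values were seen, as was setting Gast beside members. Some genes that this rule names are not reported here. Positions are from GENCODE M21. Whether replicate numbers pair samples was checked by the correlation of same-numbered samples' deviations from their group means. Every pair was over 0.1 between normal and antrum (0.462, 0.262 and 0.179) and between normal and lesser curvature (0.367, 0.298 and 0.144). The same held for lesser curvature with antrum (0.663, 0.630 and 0.393) and with greater curvature (0.405, 0.548 and 0.158). This pairing was seen in the data and is not stated in the labels. Normal and greater curvature pairs were 0.427, 0.321 and 0.0881, the last just under 0.1. Normal and corpus pairs were -0.258, 0.0178 and 0.0109, and antrum and corpus pairs were below 0 (-0.566, -0.298 and -0.296). The main tests between sites used no block, and with it the F test among sites again called 0 of 16224 genes.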

Additional observations from a re-analysis of the deposited data

How the results depend on the processing

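Of 8 tested members, 3 were called in all tumors against normal, and leaving out 1 library gave 0 to 4. Without a filter on low counts edgeR called 2, Prap1 and Zg16. Limma called 0 on log2(TPM + 1), with or without a filter, and 1 on log2(TPM + 0.1). For the antrum DESeq2 called 2 and limma 1 at either pseudocount, against 0. For the greater curvature DESeq2 called 2, and no filter, the replicate block and a fit of the compared groups called 0, with 0 to 2 on leaving out a library. For the lesser curvature the compared groups alone gave 0, limma 1, 0 and, unfiltered, 0, leaving out antrum 1 with lesser curvature 1 gave 1, and leaving out 1 library 0 to 2. DESeq2 called 2 in the corpus. Antrum, corpus and all comparisons between sites stayed at 0 on leaving out any library. DESeq2 gave Prap1 no adjusted p in the pooled test. The causes were not tested.

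Leaving out 1 library turned some log2 fold changes, given with their lowest and highest values. In all tumors these were Zg16 (-6.32 to 0.74, turned without normal 3) and Muc2 (-1.15 to 0.10, normal 2). In the antrum they were Prap1 (-5.32 to 3.002), Zg16 (-2.52 to 4.25) and Muc13 (-2.01 to 0.74), turned without normal 3, Vil1 (-1.31 to 0.10), turned without antrum 1 (also 0.10 with lesser curvature 1 out) or normal 3 (0.01), and Muc2 (-1.06 to 0.50, normal 2). In the greater curvature it was Zg16 (-7.92 to 1.87, normal 3), in the lesser curvature Muc2 (-1.33 to 0.34, normal 2) and Muc13 (-0.23 to 2.50, lesser curvature 2), and in the corpus Vil1 (-0.84 to 0.19, normal 3). Limma gave Zg16 in the antrum 1.43, 1.61 and 1.43, and Vil1 in the corpus 0.50, 0.54 and 0.50. On log2(TPM + 1) the median of all genes was 0.43 (0.52 at 0.1) and 91.2% of calls were higher, against -0.04 and 50.8%.

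Over all 5 groups same-numbered samples were alike only in part. Of 30 same-number pairs 17 correlated above 0.1, with r from -0.566 to 0.693. The median r was 0.168, against -0.0654 for other pairs, and 10 of 15 samples correlated best on average with their own number. Between the normals and the antrum, and the normals and the lesser curvature, every same-number pair was above 0.1, and the block changed no antrum call. Under the replicate block, Cdh17 (adjusted p = 0.0595) and Zg16 (0.121) lost their pooled call, Fabp1 (0.0452) and Fabp2 (0.0414) gained it, and Fabp1 (0.070) and Vil1 (1.06) reversed in the corpus.

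Depth limits Cdx1, Cdx2, Muc2, Fabp1 and Prap1, which rest on few counts in most libraries.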
